A study of Mus musculus with 15 samples.

Results

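The genes described here are 10 receptors and bridging molecules by which macrophages take up apoptotic cells. They are the TAM receptor genes Axl, Mertk and Tyro3, the ligand genes Gas6 and Pros1, the bridging gene Mfge8, the receptor genes Cd36 and Havcr2, and the integrin subunit genes Itgav and Itgb5. They were taken by symbol from a fixed list of uptake genes, and all 10 were found among the 53546 symbols of the count table. The libraries were bulk RNA-seq of dural macrophages, which the sample titles call CD206-positive, sorted from the dura mater of untreated C57BL/6J mice. All groups, the youngest included, carried the genotype Cx3cr1GFP/wt, in which GFP replaces 1 Cx3cr1 allele. There were 5 ages with 3 libraries each, the embryonic age E14.5 and the postnatal ages P3, P10, P21 and P56, named by day. The mice were individual animals, 3 to 5 an age by the series text, and p-values here measure only the spread between these libraries. The labels place P56 in sequencing project S276 and the other 4 ages in project S232, so at P56 age and project cannot be told apart.

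Removal of dying cells, or efferocytosis, begins when phosphatidylserine appears on the outer face of their membrane. Gas6 and protein S, the product of Pros1, bind this lipid through a vitamin K dependent domain and bridge it to the TAM receptor tyrosine kinases, which drive engulfment and dampen inflammatory signalling. Mfge8 bridges the same lipid to integrins built from Itgav with a beta subunit such as Itgb5, while Cd36 and TIM-3, the product of Havcr2, contact the dying cell surface themselves. Tissue macrophages are known for high Mertk or Axl, in proportions that differ between organs.

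The sequence ahead of the transcription start is shown for the members on which the results turn, the 2 expressed TAM receptor genes and 3 further members that differed among ages. Each is the 250 bases before the RefSeq start on the gene's own strand in GRCm38.p6, written 5′ to 3′. Capitals mark matches, on either strand, to the GC box GGGCGG, the PU.1 core AGGAAG, the AP-1 element TGANTCA or the interferon element core. Axl lies on the minus strand at chr7:25788734-25788983, Mertk on the plus strand at chr2:128698665-128698914 and Pros1 on the plus strand at chr16:62854057-62854306. Cd36 lies on the minus strand at chr5:17835897-17836146 and Itgb5 on the plus strand at chr16:33829415-33829664. No base of these 5 windows lies in an annotated exon of GENCODE M21.
Axl: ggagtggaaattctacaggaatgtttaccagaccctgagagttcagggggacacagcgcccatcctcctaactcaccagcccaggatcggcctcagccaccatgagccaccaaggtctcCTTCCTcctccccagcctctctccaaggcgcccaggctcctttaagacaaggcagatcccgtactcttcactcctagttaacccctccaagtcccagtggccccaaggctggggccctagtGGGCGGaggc
Mertk: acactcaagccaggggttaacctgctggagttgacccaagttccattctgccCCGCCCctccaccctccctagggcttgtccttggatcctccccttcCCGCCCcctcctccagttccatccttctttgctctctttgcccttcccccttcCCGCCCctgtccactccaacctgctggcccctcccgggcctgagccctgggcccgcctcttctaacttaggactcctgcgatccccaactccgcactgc
Pros1: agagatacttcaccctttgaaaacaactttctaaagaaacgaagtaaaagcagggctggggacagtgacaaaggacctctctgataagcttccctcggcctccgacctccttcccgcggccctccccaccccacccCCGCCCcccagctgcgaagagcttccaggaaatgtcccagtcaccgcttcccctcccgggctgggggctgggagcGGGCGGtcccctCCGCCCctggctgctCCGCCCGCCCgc
Cd36: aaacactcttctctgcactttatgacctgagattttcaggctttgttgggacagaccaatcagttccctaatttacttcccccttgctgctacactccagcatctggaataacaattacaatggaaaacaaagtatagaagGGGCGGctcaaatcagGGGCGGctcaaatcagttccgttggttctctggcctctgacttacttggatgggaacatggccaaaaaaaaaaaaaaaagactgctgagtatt
Itgb5: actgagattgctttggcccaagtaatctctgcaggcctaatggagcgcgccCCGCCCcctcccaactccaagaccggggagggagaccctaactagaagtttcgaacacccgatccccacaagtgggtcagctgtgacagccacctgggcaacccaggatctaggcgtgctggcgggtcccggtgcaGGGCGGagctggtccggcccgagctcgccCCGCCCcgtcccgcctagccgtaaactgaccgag

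The windows differ in composition: 43.2% of the Cd36 bases are G or C, against 60% in Axl and 65.2% in Itgb5, and the median over the 32851 RefSeq promoters of that length is 52.4%. A GC box stands in 8 of the 10 members' windows, the exceptions being Havcr2 and Itgav, and in 32.7% of all promoters. Axl has 1 GC box, 10 to 5 bases before the start, and 1 PU.1 core on the other strand, 131 to 126 bases before it. Mertk has 3 GC boxes and no PU.1 core, and Pros1 has 5 GC boxes, of which the last pair overlaps by 2 bases. The PU.1 core, named for a factor central to macrophage gene control, is in the windows of Axl, Mfge8, Havcr2 and Itgav and in 29.5% of all promoters. The AP-1 element is in Havcr2 only, against 6.75% of all promoters, and the interferon element core is in none of the 10, against 2.98%. Matches are a description of these letters and not of bound sites.

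Levels are CPM, read counts scaled to a fixed library size, computed from the total of the tested genes times a TMM scaling factor, as mean ± SD with n = 3. Total counts ran from 17550170 to 30614583 per library and the TMM factors from 0.807 to 1.16, highest at E14.5 and lowest at P56. Changes are log2 differences of older against younger libraries from an edgeR quasi-likelihood fit. Their SE is the size of the change divided by the square root of the F statistic of its test. A gene was called at a Benjamini-Hochberg adjusted p under 0.05 over all 14683 genes tested. The 12 dural macrophage markers, Mrc1 (CD206) and Csf1r among them, had counts in every library, with a summed level of 13113 to 20965 CPM of the total count. The markers were not uniform. Adgre1 ran from 1373 to 2322 CPM, but Lyve1 from 322 to 1693, Cd163 from 30.6 to 1680 and Cbr2 from 21.4 to 3051. P21 replicate 2 stood apart from the other libraries, and the lowest correlation between libraries of 1 age, r = 0.843 across genes, was at P21. In bulk libraries, fewer cells of a kind and less RNA per cell cannot be told apart.

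Of the 10 members, 4 passed an edgeR test of any difference among E14.5, P3, P10 and P21, the 4 ages of a single project: Axl, Pros1, Cd36 and Itgb5. Over all 14287 genes of that fit, 12.3% were called. By steps, P3 vs E14.5 called 0 of the 10 (background 2.06%) and P10 vs P3 called 0 (background 0.402%). At an unadjusted p under 0.05 these steps had 1 and 0 members, and DESeq2 called 1 and 0. P21 vs P10 called 1, Pros1 (background 1.14%), P21 vs E14.5 called 1, Axl (background 12.2%), and P56 vs P21 called 1, Axl again (background 0.272%). The last 3 comparisons share the P21 libraries, so their values are not independent. All 10 genes passed the filter on low counts, Tyro3 through 3 libraries only.

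**Figure D1:**
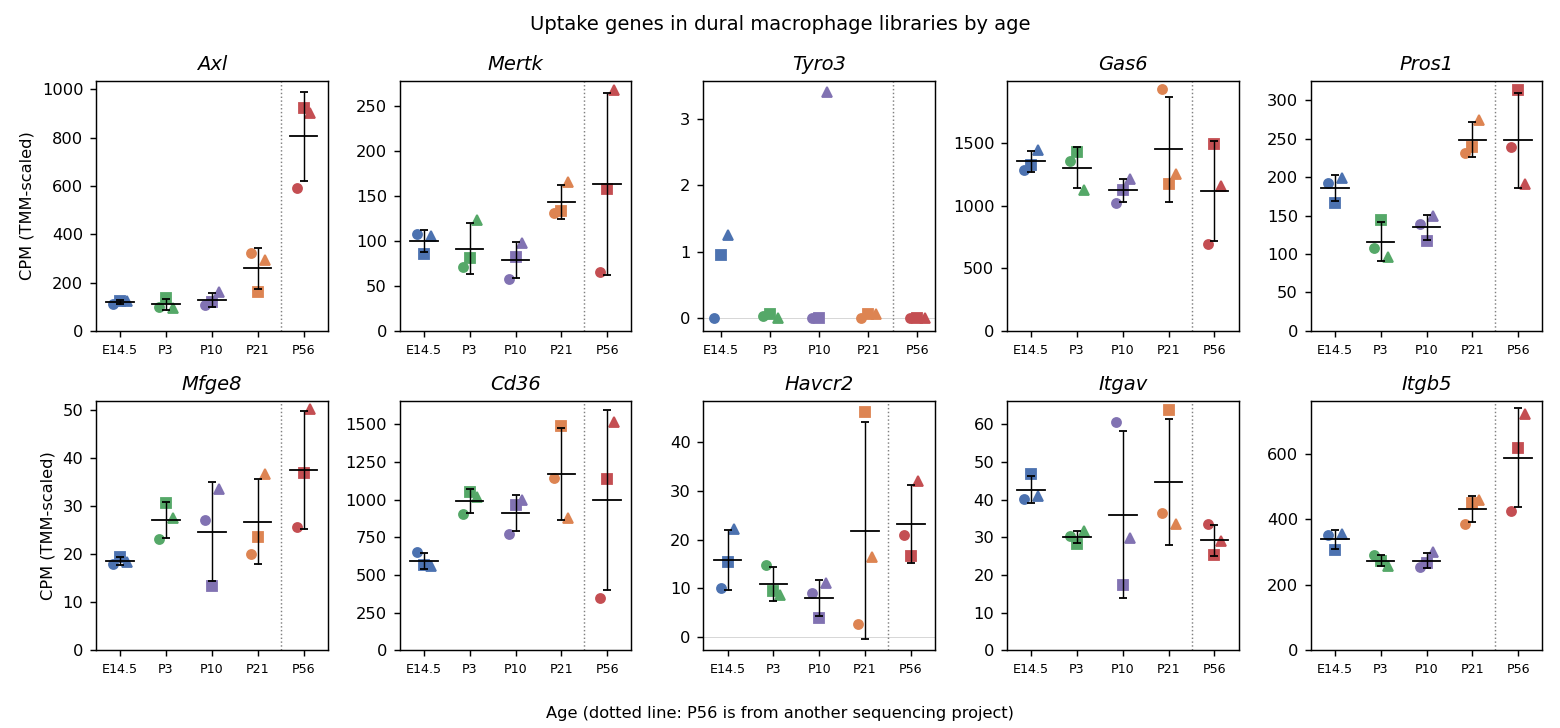
Level of each gene in every library by age, in TMM-scaled CPM on linear axes that differ between panels. Circles, squares and triangles are the libraries of an age in order of their number, horizontal lines are means and bars are SD (n = 3). Tyro3 has points only. The 3 Axl points at P56 lie between 593 and 922 CPM, above all 12 earlier libraries.

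Among the TAM receptors, Axl rose from E14.5 to P21 and was higher again at P56, where age and project cannot be told apart. Its libraries had 112, 126 and 123 CPM at E14.5, 99.5, 137 and 96.6 at P3, and 105, 119 and 161 at P10. They had 323, 162 and 292 CPM at P21 and 593, 922 and 902 at P56. The 3 youngest ages overlap each other, the P21 libraries lie above those of P10 and E14.5, though P21 replicate 2 has 162 CPM against 161 in the highest P10 library, and the P56 libraries lie above every other. The highest of the 12 earlier libraries had 323 CPM. As CPM of the total count, without the TMM factor, P21 replicate 2 (148) lies below P10 replicate 3 (166) and P3 replicate 2 (151).

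Axl rose 2.15-fold from E14.5 (120 ± 7.24 CPM) to P21 (259 ± 85.5), a log2 change of 1.11 ± 0.25 (edgeR adjusted p = 0.0107). At P56 (805 ± 184), in the other project, Axl was 3.11-fold higher than at P21, a log2 change of 1.64 ± 0.26 (adjusted p = 0.0161). The step from P10 (128 ± 29.0) to P21 was 1.01 ± 0.25 and missed the threshold (adjusted p = 0.0774). Without P21 replicate 2 that step passed (1.26, adjusted p = 0.0255). Without P21 replicate 1 the rise from E14.5 missed it (0.92, adjusted p = 0.0522), and the test among 4 ages, which gave an adjusted p of 0.0140, gave 0.0638 without P21 replicate 1 and 0.0517 without P21 replicate 3. The P56 vs P21 difference was called with each library left out in turn, at log2 changes of 1.39 to 1.83. It was not called in a fit of the P21 and P56 libraries alone (1.63, adjusted p = 0.271). With no scaling factor P21 vs E14.5 gave 0.80 (adjusted p = 0.0457) and P56 vs P21 gave 1.49 (adjusted p = 0.0246).

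Mertk, the receptor most often tied to uptake by resident macrophages, did not pass. It had 108, 85.8 and 105 CPM at E14.5, 70.6, 80.7 and 124 at P3, 57.6, 81.9 and 97.4 at P10, 131, 134 and 166 at P21, and 65.2, 157 and 267 at P56. The P21 libraries lie above all those of E14.5, P3 and P10, whereas the P56 libraries overlap every other age. As CPM of the total count, without the TMM factor, P21 replicate 1 (118) lies below P3 replicate 3 (138) and E14.5 replicate 1 (121). From P10 to P21 the difference was 0.86 ± 0.38 (edgeR adjusted p = 0.313), and the test among 4 ages gave an adjusted p of 0.0996. Without P3 replicate 3, whose 124 CPM is the highest value before P21, that p was 0.0383. Mertk also passed among the 4 ages in DESeq2 (adjusted p = 0.0189), with no filter (0.0264) and with the replicate block (0.0402), whose numbers do not pair the samples. With no scaling factor it did not pass in edgeR (adjusted p = 0.205), and its P21 vs E14.5 change went from 0.52 to 0.22.

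The proportion of the 2 receptor transcripts needs no scaling, since both counts come from the same library. Axl counts were 1.03 to 1.46 times Mertk counts at E14.5, 0.782 to 1.70 times at P3, 1.45 to 1.83 times at P10, 1.21 to 2.46 times at P21 and 3.37 to 9.09 times at P56. The 4 earlier ages overlap and their ratios did not pass (two-sided exact permutation test over 369600 splits, p = 0.356, adjusted p = 0.534 over 3 ratios). The P56 ratios lie above all 12 earlier ones. Against P21 the mean log2 ratio was 2.50 in place of 0.80, a difference of 1.70 with an exact permutation p of 0.1, the smallest that 3 against 3 libraries allow. Per kilobase of merged exon (GENCODE M21), Axl and Mertk lay side by side at E14.5, with 23.9 ± 1.44 and 23.0 ± 2.81 CPM, and apart at P56, with 160 ± 36.6 and 37.7 ± 23.4.

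Tyro3, the remaining TAM receptor gene, was at the edge of detection. It had 26 and 36 counts in E14.5 replicates 2 and 3, 67 counts in P10 replicate 3, and 0 or 1 count in each of the other 12 libraries. Summed over an age, E14.5 had 62 counts, P3 had 2, P10 had 67, P21 had 2 and P56 had 0. A count of 0 among the 64320762 counts of the P56 libraries allows up to 0.0466 CPM of the total. The counts at P10 rest on 1 library, and no fold is given.

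Gas6, the ligand that binds all 3 TAM receptors, was the most abundant member per kilobase at every age, from 437 ± 157 CPM at P56 to 569 ± 165 at P21. Its libraries had 1289, 1325 and 1447 CPM at E14.5, 1359, 1431 and 1123 at P3, and 1025, 1128 and 1211 at P10. At P21 they had 1933, 1170 and 1250 CPM, and at P56 they had 695, 1491 and 1156. Neighbouring ages overlap, and the test among 4 ages did not pass (edgeR adjusted p = 0.470). P21 replicate 1 and P56 replicate 4 are the highest and the lowest of the 15 libraries.

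Pros1, which encodes the anticoagulant protein S and serves Mertk and Tyro3 as a ligand, rose from P10 to P21 and had lower libraries at P3 and P10 than at E14.5 and P21. It had 193, 166 and 199 CPM at E14.5, 108, 144 and 96.4 at P3, 138, 117 and 149 at P10, 232, 239 and 275 at P21, and 239, 314 and 191 at P56. The P3 libraries all lie below those of E14.5, and the P21 libraries all lie above those of every earlier age. As CPM of the total count, without the TMM factor, the P21 libraries (209 to 259) overlap those of E14.5 (192 to 227). The test among 4 ages gave an adjusted p of 0.00316 with edgeR and held with each of the 12 libraries left out (adjusted p 0.00160 to 0.0115). From P10 (135 ± 16.4) to P21 (249 ± 22.9) it rose 1.85-fold, a log2 change of 0.88 ± 0.19 (adjusted p = 0.0415).

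That single step is close to the threshold. Leaving out any 1 of its 6 libraries gave log2 changes of 0.79 to 0.96 with adjusted p-values of 0.0683 to 0.187 for Pros1, and no scaling factor gave 0.72 (adjusted p = 0.0968). The difference from E14.5 (186 ± 17.3) to P3 (116 ± 25.0) was -0.68 ± 0.19 with an adjusted p of 0.0964 in edgeR and 0.0216 in DESeq2. P21 and E14.5 differed by 0.42 (adjusted p = 0.178), or by 0.11 with no scaling factor (adjusted p = 0.754). The libraries of P56 (248 ± 61.8) and P21 overlap.

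The proportion of the 2 ligand transcripts was also followed within each library. Gas6 counts were 6.69 to 7.98 times Pros1 counts at E14.5, 9.93 to 12.6 times at P3, 7.41 to 9.66 times at P10, 4.55 to 8.34 times at P21 and 2.90 to 6.05 times at P56. The P3 ratios exceed those of all other libraries. Among the 4 ages of project S232 the ratio differed (two-sided exact permutation test, p = 0.0122, adjusted p = 0.0366 over 3 ratios). Of the pairs computed, P21 vs E14.5 gave an exact permutation p of 0.4 and P56 vs P21 gave 0.5. The ratio was chosen with the levels known.

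**Figure D2:**
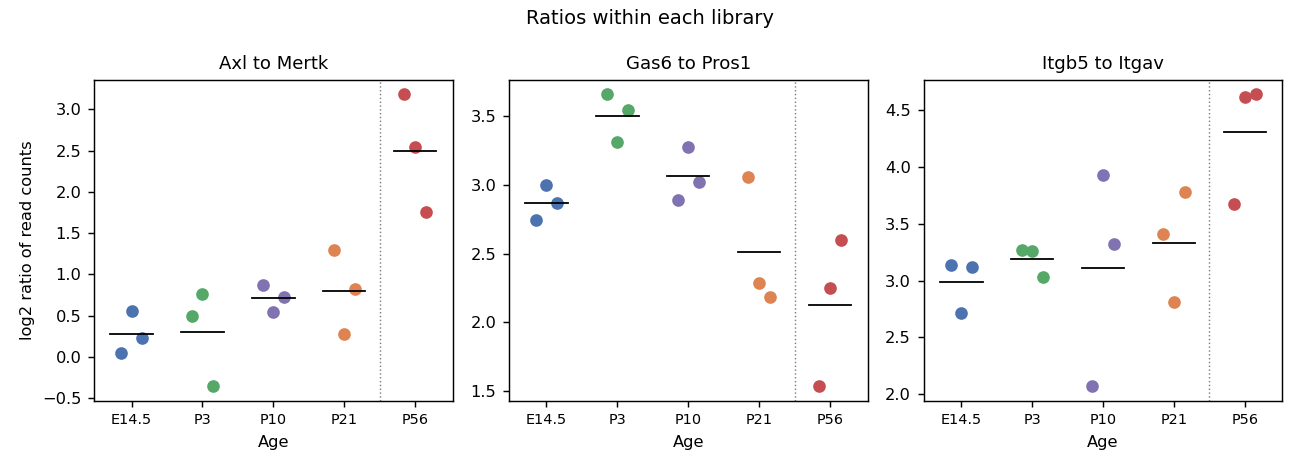
Log2 ratio of read counts within each library for Axl to Mertk, Gas6 to Pros1 and Itgb5 to Itgav, by age. Points are libraries, lines are means (n = 3), and the dotted line separates P56, from another project. The Axl to Mertk points at P56 lie above all others, and the Gas6 to Pros1 points are highest at P3.

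Mfge8, the bridge to integrins, was low throughout. It had 17.9 to 19.5 CPM at E14.5, 23.2 to 30.7 at P3, 13.4 to 33.5 at P10, 19.9 to 36.8 at P21 and 25.6 to 50.1 at P56. All P3, P21 and P56 libraries lie above the E14.5 ones, by 0.55 ± 0.35 at P3 (edgeR adjusted p = 0.578) and 0.53 at P21 (adjusted p = 0.375). Neither passed. As CPM of the total count, the P21 and P56 libraries overlap those of E14.5.

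Cd36, a scavenger receptor for oxidized lipid, thrombospondin and dying cells, differed among the 4 ages of project S232, with its lowest libraries at E14.5. It had 653, 563 and 558 CPM at E14.5, 903, 1052 and 1018 at P3, 775, 961 and 994 at P10, 1144, 1490 and 879 at P21, and 347, 1133 and 1515 at P56. All 9 libraries of P3, P10 and P21 lie above all 3 of E14.5, while P56 replicate 4 lies below every other library. The test among 4 ages passed (edgeR adjusted p = 0.0130), but not without E14.5 replicate 2 (0.0688) or E14.5 replicate 3 (0.0641). Pairwise, the difference was 0.74 ± 0.36 at P3 (592 ± 53.6 against 991 ± 78.1 CPM, adjusted p = 0.420) and 0.99 ± 0.36 at P21 (1171 ± 307 CPM, adjusted p = 0.0974).

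These pairwise results changed with the libraries fitted and with the method, and the cause was not tested. In a fit of E14.5 and P3 alone, Cd36 passed (0.74, adjusted p = 0.00950), as it did for P21 vs E14.5 in a fit of those 2 ages (0.97, adjusted p = 0.0232) and in DESeq2 (0.99, adjusted p = 0.0205). Cd36 is also known from adipocytes, platelets, endothelial cells and monocytes. The 5 adipocyte markers summed to at most 0.887 CPM of the total in any library, with Cidec at 0 at all 5 ages. The 6 platelet and megakaryocyte markers summed to 14.9 to 32.9 CPM at E14.5 and 16.9 to 33.0 at P3, on the same scale. The 9 endothelial markers, of which 4 to 9 had counts in a library of these ages, summed to 48.8 to 58.5 at E14.5, 90.1 to 114 at P3, 102 to 147 at P10 and 58.3 to 94.2 at P21, led by Egfl7. The 7 monocyte markers summed to 18.1 to 37.0 at E14.5 and 45.8 to 55.6 at P3, led by Ccr2. The endothelial and monocyte sums were thus higher at P3 than at E14.5 without overlap, as Cd36 was. Egfl7 alone averaged 48.3 CPM of the total at E14.5 and 98.5 at P3. No other endothelial marker exceeded 5.83 in any library. Ccr2 averaged 22.6 at E14.5 and 24.6 at P3, so the monocyte sum rose mainly through other listed genes. The part of these cells in the Cd36 values was not tested.

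Havcr2, which encodes TIM-3, was low and uneven. Its libraries had 9.94, 15.4 and 22.2 CPM at E14.5, 14.8, 9.35 and 8.49 at P3, and 8.97, 3.77 and 11.1 at P10. At P21 they had 2.69, 46.3 and 16.5 CPM, the lowest and the highest of all 15 libraries, and at P56 they had 20.95, 16.7 and 32.1. No difference passed (adjusted p = 0.542 among 4 ages), and without P21 replicate 2 the P21 vs E14.5 value went from 0.46 to -0.73.

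Of the integrin subunits, the beta chain Itgb5 differed among the 4 ages and the alpha chain Itgav did not pass. Itgb5 had 353, 306 and 355 CPM at E14.5, 292, 271 and 257 at P3, 255, 266 and 299 at P10, 387, 448 and 459 at P21, and 426, 617 and 721 at P56. The P3 libraries lie below those of E14.5, the P21 libraries lie above those of all earlier ages, and P56 overlaps P21. As CPM of the total count, the P21 libraries (349 to 433) overlap those of E14.5 (354 to 405). The P21 vs E14.5 change was 0.35, or 0.043 with no scaling factor. The test among 4 ages passed (edgeR adjusted p = 0.00431) and held with each library left out (adjusted p 0.00506 to 0.0166). The step from P10 (273 ± 22.8) to P21 (432 ± 39.2) was 0.66 ± 0.16 and missed the threshold in edgeR (adjusted p = 0.0705). DESeq2 called it (0.66, adjusted p = 0.00404), and no scaling factor gave 0.50 (adjusted p = 0.124).

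Itgav had 40.1 to 46.8 CPM at E14.5, 28.3 to 31.5 at P3, 17.4 to 60.6 at P10, 33.5 to 63.7 at P21 and 25.2 to 33.4 at P56, and passed no test (adjusted p = 0.719 among 4 ages). Within libraries, Itgb5 counts were 6.55 to 8.80 times Itgav counts at E14.5, 8.16 to 9.63 times at P3, 4.21 to 15.3 times at P10 and 7.03 to 13.7 times at P21. At P56 they were 12.8 to 24.9 times, a range that overlaps those of P10 and P21. The ratio did not differ among the 4 earlier ages beyond the spread (two-sided exact permutation test, p = 0.889).

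**Figure D3:**
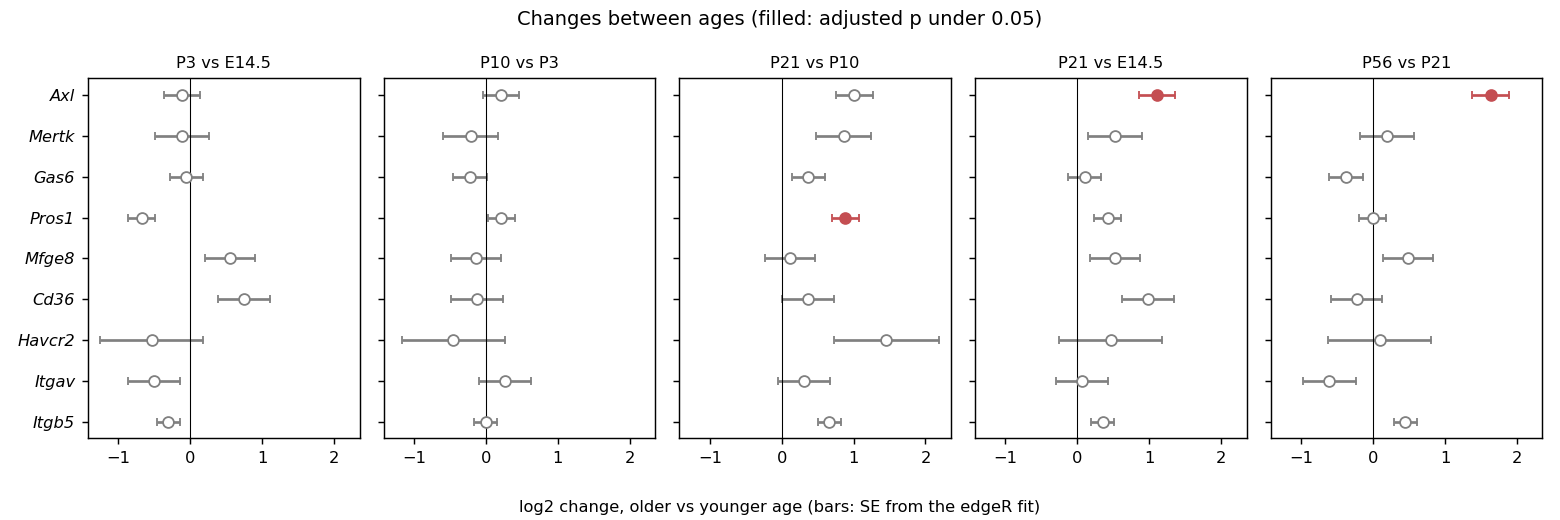
Log2 change of 9 members, Tyro3 left out, in 5 comparisons of an older with a younger age. Points are edgeR estimates, bars are SE, and filled points have an adjusted p under 0.05. The filled points are Pros1 in P21 vs P10 (0.88) and Axl in P21 vs E14.5 (1.11) and P56 vs P21 (1.64).

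Seen step by step, the median log2 change of the 10 members was -0.21 at P3 vs E14.5, beside 0.01 for all tested genes, and -0.06 at P10 vs P3, beside 0.01. It was 0.52 at P21 vs P10, beside -0.01, and 0.44 at P21 vs E14.5, beside -0.01. At P56 vs P21 it was 0.04, beside 0. These medians include Tyro3, whose values rest on a few counts, and medians without it are not given. The libraries of 5 members did not overlap between E14.5 and P3 (background 26.4%): Mfge8 and Cd36 were higher at P3, and Pros1, Itgav and Itgb5 were lower. Between P3 and P10 the libraries of every member overlapped (background of non-overlap 19.2%). Between P10 and P21, Axl, Mertk, Pros1 and Itgb5 did not overlap (background 17.7%), and all 4 were higher at P21. Between E14.5 and P21, 6 members did not overlap (background 33.4%), and all 6 were higher at P21. As CPM of the total count, without the TMM factor, Axl overlapped between P10 and P21. Mertk, Pros1, Mfge8 and Itgb5 then overlapped between E14.5 and P21, while Axl and Cd36 did not. Between P21 and P56 only Axl, higher, and Itgav, lower, did not overlap (background 13%). The backgrounds of non-overlap count either direction. With no scaling factor the median of all tested genes moved to -0.32 for P21 vs E14.5, -0.18 for P21 vs P10 and -0.13 for P56 vs P21, and the values of Gas6 and Itgav for P21 vs E14.5 changed sign, to -0.22 and -0.25.

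Ranked per kilobase, the order of the members at E14.5 was Gas6 (531 ± 32.5 CPM per kilobase), Cd36 (165 ± 14.9), Itgb5 (95.2 ± 7.76), Pros1 (45.4 ± 4.23), Axl and Mertk, and then Havcr2, Itgav and Mfge8 between 3.96 and 5.82, with Tyro3 last. Axl and Mertk do not differ beyond their spread there, nor do the last 3 above Tyro3. The first 6 places were the same at P3, P10 and P21. At P56, Axl (160 ± 36.6) stood above Pros1 (60.7 ± 15.1) and beside Itgb5 (166 ± 42.1), from which its spread does not separate it.

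Some libraries ran high or low across members. Over the 9 members other than Tyro3, P10 replicate 3 was the highest of its age for 8, and P56 replicate 4 was the lowest of its age for 6. P56 replicate 4 also had the lowest macrophage marker sum of its age, 13418 CPM of the total against 20538 and 20965, and the highest sum of the 7 monocyte markers, 460 against 52.3 and 107, nearly all of it Ccr2. Axl in that library was 593 CPM, still above every library of the 4 earlier ages. The part of that library's makeup in the P56 values was not tested.

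Marker sums of other cell types moved along the same ages. The 10 fibroblast markers had sums of 80.9 to 755 CPM of the total count at E14.5, 590 to 2603 at P3, 790 to 2939 at P10, 1257 to 2077 at P21 and 249 to 331 at P56. They are thus lower at P56 than in any library of P3, P10 or P21. E14.5 replicates 1 and 2, with 89.4 and 80.9, lie lower still. The 7 dendritic cell markers, of which 4 to 6 had counts in a library, summed to 77.2 to 104 at P10, 157 to 276 at P21 and 191 to 372 at P56. Siglech led at these 3 ages, Clec9a was at 0 at E14.5, P3, P21 and P56, and Xcr1 was at 0 at P21. Flt3, Xcr1, Ccr7 and Clec9a did not exceed 2.76 CPM of the total in any library. The 7 monocyte markers summed to 21.5 to 64.4 at P10 and 79.2 to 141 at P21, led by Ccr2. The 8 osteoclast markers went the other way, with 924 to 1910 at P10 and 189 to 273 at P21. So did the 8 mast cell markers, with 176 to 434 at P10 and 4.05 to 11.4 at P21. The part of these cells in the values of Axl, Pros1 and Itgb5 was not tested.

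**Figure D4:**
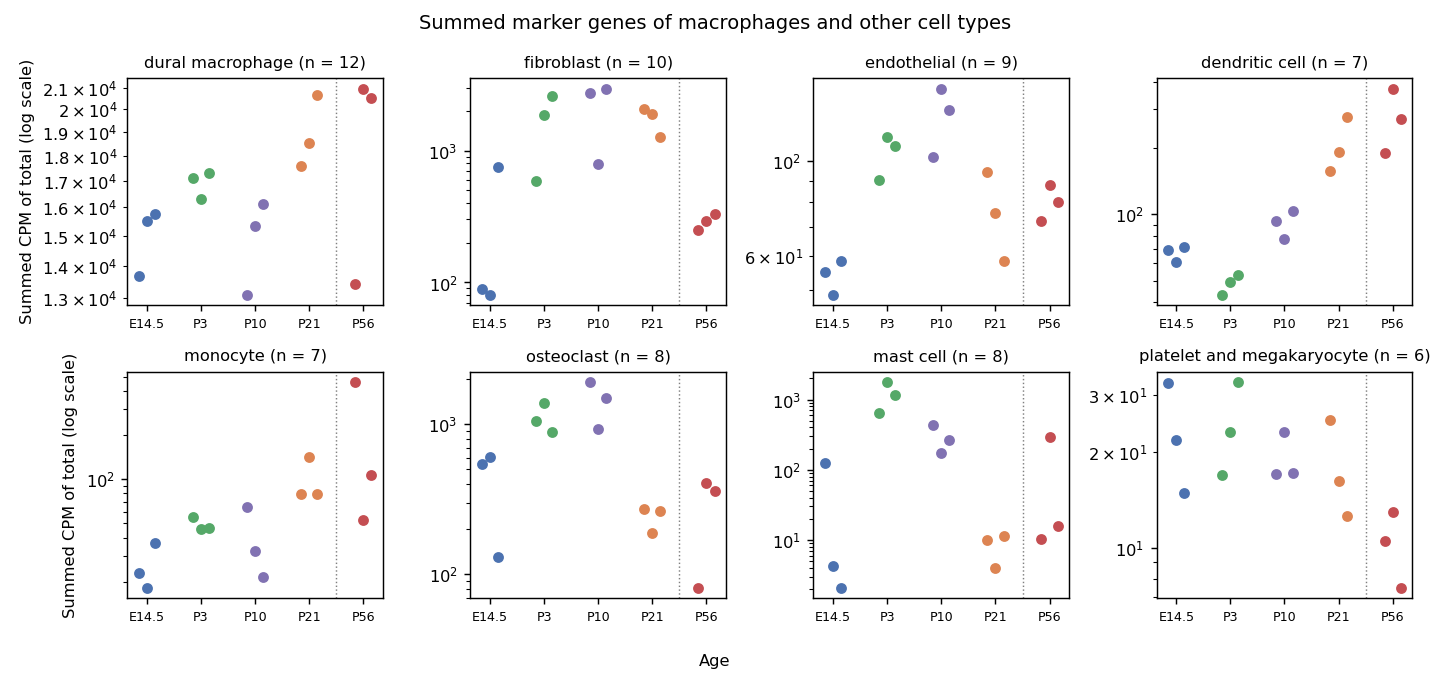
Summed level of 8 marker lists in every library by age, in CPM of the total count on log axes. The n in a title is the number of marker genes in a list, and the dotted line separates P56. Fibroblast sums are lower at P56 than at P3, P10 and P21. Sums of the dendritic cell list, led by Siglech at P21 and P56, are higher at these 2 ages than at the earlier ages.

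Around the members, 105 further uptake genes in 11 lists were tested. Among E14.5, P3, P10 and P21, 37 of the 105 were called by edgeR (background 12.3%). P21 vs E14.5 called 31 (background 12.2%), of which 21 rose (background of higher calls 7.81%) and 10 fell (background of lower calls 4.37%). With no scaling factor 13 rose and 17 fell. Leaving out 1 library at a time gave 20 to 27 of these calls, 20 of them without E14.5 replicate 1. P3 vs E14.5 called 8 (6 higher and 2 lower, background 1.67% and 0.388%), P10 vs P3 called 1, C1qa (background 0.402%), P21 vs P10 called 11 (10 higher and 1 lower, background 0.96% and 0.184%) and P56 vs P21 called 1, S1pr1 (background 0.272%). The median change of the 105 for P21 vs E14.5 was 0.09, beside -0.01 for all tested genes.

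Of 12 tested receptors and tethers for phosphatidylserine, 4 rose from E14.5 to P21 (background 7.81%) and none fell (background 4.37%) in edgeR. Cd14, known as the lipopolysaccharide co-receptor and as a tether for dying cells, rose from 203 ± 28.8 to 5472 ± 1347 CPM (4.75 ± 0.34, adjusted p = 7.28e-07). Timd4, which encodes the phosphatidylserine receptor TIM-4, rose from 27.1 ± 2.71 to 81.0 ± 23.2 CPM (1.58 ± 0.35, adjusted p = 0.00847). Cd300a, an inhibitory receptor for the same lipid, rose from 248 ± 3.13 to 512 ± 124 CPM (1.05, adjusted p = 0.000904). These 3 calls held with each of the 6 libraries left out.

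Of 10 other bridging and opsonin genes, 4 rose (background 7.81%). The 3 chains of C1q, the complement opsonin, were among them. C1qa went from 1295 ± 64.4 CPM at E14.5 through 2307 ± 94.8 at P3 and 3287 ± 361 at P10 to 5173 ± 137 at P21, a log2 change of 1.998 ± 0.11 over the span (edgeR adjusted p = 3.07e-08). C1qb and C1qc changed by 1.59 (adjusted p = 2.12e-07) and 1.58 (adjusted p = 3.74e-07). Among 5 genes for the vitamin K cycle that activates Gas6 and protein S, only Vkorc1, the epoxide reductase, was called (background 12.2%). It rose from 20.6 ± 2.14 to 46.4 ± 4.73 CPM (1.17, adjusted p = 0.00116).

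Of 10 partners and ligands of Cd36 and Havcr2, none rose (background 7.81%) and 3 fell (background 4.37%). Fyn, a Src family kinase that couples to Cd36, fell from 125 ± 22.6 to 12.5 ± 8.69 CPM (-3.32, edgeR adjusted p = 0.00143). Cd9, a tetraspanin partner, fell from 127 ± 32.0 to 43.5 ± 9.61 CPM (-1.55, adjusted p = 0.0190). It missed the threshold without E14.5 replicate 1 (-1.33, 0.0822), P21 replicate 2 (-1.59, 0.0506) or P21 replicate 3 (-1.38, 0.0649). Lyn, another Src family kinase, had 322 ± 13.5 CPM at E14.5, 253 ± 6.64 at P10 and 407 ± 33.9 at P21, and differed among the 4 ages (adjusted p = 0.00740) but not between E14.5 and P21 (0.34, adjusted p = 0.130).

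Of 7 sheddases and signals that hold back uptake, 1 rose (background 7.81%) and 2 fell (background 4.37%). Cd47, the signal on healthy cells, rose from 246 ± 17.4 to 418 ± 35.7 CPM (0.76, edgeR adjusted p = 0.00132), and Sirpa, its receptor on macrophages, fell from 1505 ± 131 to 898 ± 96.1 CPM (-0.74, adjusted p = 0.00525). Adam17, a protease that cleaves Mertk and Axl from the surface, fell from 249 ± 20.9 to 147 ± 22.5 CPM (-0.76, adjusted p = 0.0158). Adam17 missed the threshold without E14.5 replicate 1 (-0.70, 0.0624) or P21 replicate 2 (-0.65, 0.0707). Sirpa and Cd47 held with each library left out.

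Of 6 receptors for signals released by dying cells, 3 rose (background 7.81%). P2ry6, a nucleotide receptor, rose from 238 ± 44.6 to 446 ± 18.6 CPM (0.91, edgeR adjusted p = 0.002004). S1pr1, the sphingosine 1-phosphate receptor, had 81.5 ± 9.19 CPM at E14.5, 119 ± 3.39 at P21 and 251 ± 21.8 at P56. Its rise from E14.5 to P21 (0.55, adjusted p = 0.0103) was lost without E14.5 replicate 2 (0.46, 0.0627), in a fit of the 2 ages (0.53, 0.0678), with no filter (0.57, 0.0509) and with no scaling factor (0.24, 0.210). Between P21 and P56, which are from different projects, the S1pr1 difference was 1.08 (adjusted p = 0.00456). Cx3cr1, the fractalkine receptor of which these mice have 1 intact allele, had 713 ± 146 CPM at E14.5 and 471 ± 40.6 at P21 and did not pass between them (-0.60, adjusted p = 0.0767). It passed in DESeq2 (-0.59, adjusted p = 0.0291) and with no scaling factor (-0.90, adjusted p = 0.00950).

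Of 15 engulfment genes, 1 was called (background 12.2%), so this list did not exceed the share over all tested genes. It was Elmo1, a Rac activator, which fell (229 ± 28.7 to 129 ± 42.6 CPM, -0.83, edgeR adjusted p = 0.0229). The call was lost without E14.5 replicate 1 (-0.84, 0.0594), E14.5 replicate 3 (-0.73, 0.0963) or P21 replicate 1 (-0.58, 0.0544), and in a fit of the 2 ages (-0.85, 0.0835). Arhgef6 and Vav1, exchange factors for Rac, did not pass between E14.5 and P21 (0.04 and -0.20). With no scaling factor Vav1 passed (-0.51, adjusted p = 0.0227) and Arhgef6 changed sign (-0.27). Of the 3 tested integrin partners, 0 were called for P21 vs E14.5 in edgeR (background 12.2%), with 0 at an unadjusted p under 0.05. Itgb1 had -0.33 there and passed with no scaling factor (-0.64, adjusted p = 0.0126) and with the replicate block (-0.34, adjusted p = 0.0333). Itgb1 differed among the 4 ages (adjusted p = 0.00446), with 709 ± 20.7 CPM at E14.5 and 478 ± 20.2 at P10.

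Of 15 genes of phagosome maturation, 4 rose (background 7.81%) and none fell (background 4.37%). Cybb and Cyba encode the membrane subunits of the NADPH oxidase used in LC3-associated phagocytosis. Cybb rose from 207 ± 19.1 to 687 ± 95.1 CPM (1.73, edgeR adjusted p = 8.70e-05) and Cyba from 685 ± 74.0 to 1170 ± 185 CPM (0.77, adjusted p = 0.00911), though Cyba missed the threshold with no scaling factor (0.46, 0.0890). Dnase2a, which digests engulfed DNA, rose from 83.0 ± 2.87 to 133 ± 20.7 CPM (0.68, adjusted p = 0.0181). That call was lost with no scaling factor (0.37, 0.154) and without any 1 of E14.5 replicates 1 (0.0681), 2 (0.0562) and 3 (0.0657) and P21 replicates 1 (0.0805) and 2 (0.0509).

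Of 14 genes that handle lipid and metabolites after uptake, 1 rose (background 7.81%) and 4 fell (background 4.37%). Ucp2, a mitochondrial carrier, rose from 930 ± 153 to 1833 ± 98.6 CPM (0.98, edgeR adjusted p = 0.000514). Slc2a1, the glucose transporter GLUT1, fell from 59.7 ± 5.41 to 14.9 ± 4.67 CPM (-2.01, adjusted p = 0.0108). Abca1, a cholesterol exporter, fell from 472 ± 73.6 to 276 ± 32.9 CPM (-0.77, adjusted p = 0.0304). It missed the threshold without E14.5 replicate 2 (-0.81, 0.0693), E14.5 replicate 3 (-0.64, 0.135), P21 replicate 1 (-0.77, 0.0851) or P21 replicate 2 (-0.69, 0.112).

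Of 8 genes of the feedback by which TAM receptors restrain cytokine signalling, 3 rose (background 7.81%). Socs3, an inhibitor of JAK-STAT signalling, rose from 87.8 ± 7.99 to 782 ± 199 CPM (3.15, edgeR adjusted p = 2.71e-06) and held with each library left out. Stat3 rose from 138 ± 9.62 to 201 ± 27.3 CPM (0.54, adjusted p = 0.0488). It missed the threshold with 5 of the 6 libraries left out in turn, all but P21 replicate 2, at adjusted p-values of 0.108 to 0.170. It also missed it with no scaling factor (0.23, adjusted p = 0.375), with no filter (0.0663), with the replicate block (0.0703) and in a fit of the 2 ages (0.0698).

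**Figure D5:**
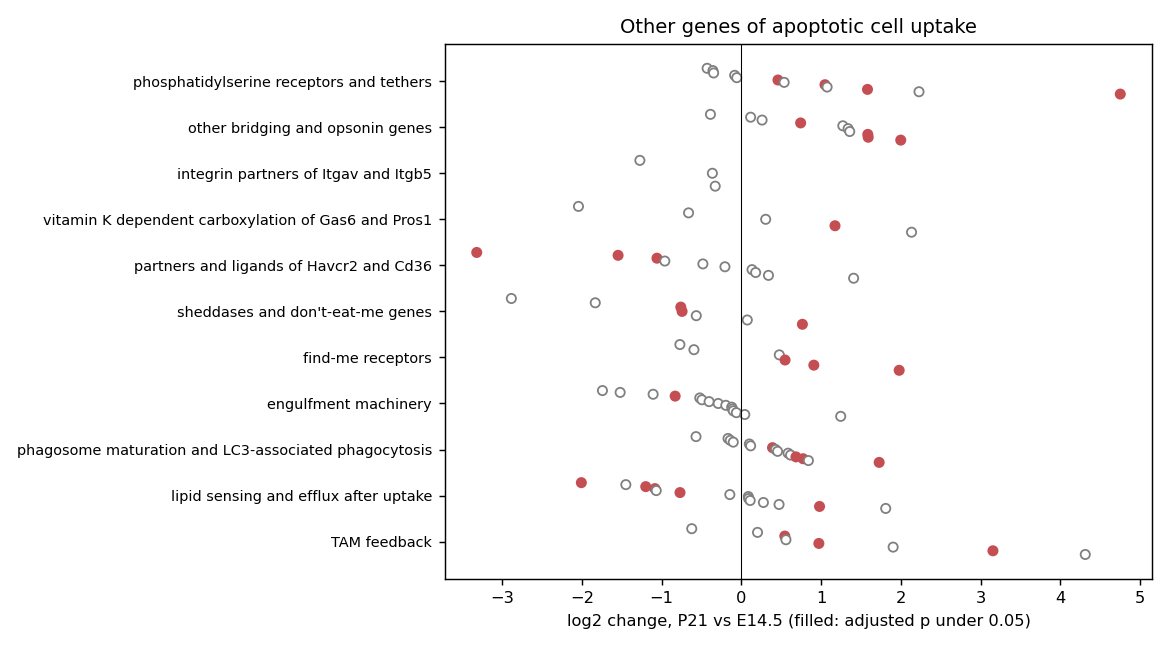
Log2 change from E14.5 to P21 of 105 further uptake genes in 11 lists, 1 point per gene. Filled points have an edgeR adjusted p under 0.05. The point farthest right, in the first list, is Cd14 (4.75), and the point farthest left is Fyn (-3.32).

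The genes whose pattern over the 12 libraries of project S232 was most like that of a called member were taken by the smallest root mean square difference of centred log2 CPM among 6477 candidates. For Axl they were Pex13 (0.22), Ets2 (0.27) and Trim25 (0.27), against a median of 0.67 over the candidates. For Pros1 they were Nfkbiz (0.16), Rnf145 (0.21) and Poglut1 (0.21), against 0.61. For Cd36 they were Cd300a (0.15) and Gdpd1 (0.16), against 0.56. For Itgb5 they were Ptprc, the CD45 gene (0.13), Myadm (0.13) and Lyn (0.15), against 0.48.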

How the data were processed

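RNA-seq was measured in 15 libraries. The authors deposited raw read counts per gene symbol in 1 unnormalized table. Per the submitters' processing notes, the tools were featureCounts 2.0.2, STAR 2.7.8a and bcl2fastq 2.18. Genome build, annotation and strand setting are not given in the sources used here, so reads of overlapping or antisense genes may be mixed. Per the labels' protocols, cDNA was made with a SMARTer Ultra Low Input kit and libraries with Nextera XT, without stated molecular identifiers, so the floor for a count of 0 (3 counts in the libraries of an age) covers only counting error.

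Tests of the counts used edgeR 4.0.16 (R 4.3.3): filterByExpr by age, TMM, robust quasi-likelihood F-tests, age as the only term, all 15 libraries in 1 fit, and Benjamini-Hochberg adjustment over all genes tested. A further fit used the 12 libraries of project S232. The method was tested on simulated data. The members, gene lists, ratios and comparisons were chosen with earlier results of these data known. All 10 members are named, and per list up to 3 genes called among the 4 ages with a mean of 20 CPM in 1 age. Candidates for likeness had a mean of 20 CPM over the 12 libraries, and up to 3 per called member are named. Some genes that these rules pick are not reported here. Alternatives were RLE scaling, no scaling factor, no filter, a filter of 5 CPM in 3 libraries, a replicate block, fits of 2 ages, leaving out each library, and DESeq2 1.42.0. Those for the further uptake genes were chosen after seeing the data. Promoters are from RefSeq GRCm38.p6, where all 10 members matched, and exon lengths from GENCODE M21.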

Additional observations from a re-analysis of the deposited data

How the results depend on the processing

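The count of members called changed with the setting in 5 of 6 comparisons, P10 vs P3 staying at 0. P3 vs E14.5 went from 0 to 1 in a fit of the 2 ages (Cd36) and in DESeq2 (Pros1). P21 vs P10 went from 1 to 0 with no scaling factor or in a fit of the 2 ages, and to 3 with no filter, with the 5 CPM filter, in DESeq2 (Axl, Pros1 and Itgb5 in each) and with the replicate block. P21 vs E14.5 went from 1 to 2 with the replicate block, in a fit of the 2 ages and in DESeq2, which added Cd36. P56 vs P21 went from 1 to 0 in a fit of the 2 ages. Leaving out 1 library gave 0 to 1 members for P21 vs P10, 0 to 1 for P21 vs E14.5, 3 to 5 in place of 4 among the 4 ages, and 20 to 27 further uptake genes for P21 vs E14.5. The test among 4 ages went from 4 to 5 with no filter, with the replicate block and in DESeq2, which added Mertk. The causes were not tested. Among the 4 ages DESeq2 called 49 further uptake genes in place of 37.

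With the replicate number as a block, P21 vs P10 called 3 members (Mertk, Pros1 and Itgb5), P21 vs E14.5 called 2 and the test among 4 ages called 5, Mertk added. The numbers do not pair the samples: deviations of same-numbered libraries correlated at -0.0539 to 0.0634 over 18 pairs. No paired analysis was possible for P56 vs P21 because these ages share no numbers.

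None of the reversed values concerns a call. With no scaling factor, Mfge8 turned to -0.050 (P21 vs P10), Gas6 to -0.22, Itgav to -0.25 and Arhgef6 to -0.27 (P21 vs E14.5) and Havcr2 to -0.058 (P56 vs P21). Itgb5 for P10 vs P3 turned to 0.0069 with no filter and 0.0078 with the 5 CPM filter. Leaving out 1 library gave ranges that cross 0. For P3 vs E14.5 they were -0.40 to 0.034 for Mertk and -0.13 to 0.045 for Gas6. For P10 vs P3 they were -0.0083 to 0.39 for Axl, -0.42 to 0.060 for Mertk, -2.59 to 5.73 for Tyro3, -0.44 to 0.16 for Mfge8, -0.34 to 0.59 for Itgav and -0.092 to 0.048 for Itgb5. For P21 vs P10 they were -5.46 to 2.83 for Tyro3, -0.18 to 0.40 for Mfge8 and -0.043 to 0.91 for Itgav. For P21 vs E14.5 they were -0.16 to 0.23 for Gas6, -0.73 to 0.98 for Havcr2, -0.29 to 0.23 for Itgav and -0.028 to 0.11 for Arhgef6. For P56 vs P21 they were -0.36 to 0.56 for Mertk, -0.21 to 0.16 for Pros1, -0.66 to 0.17 for Cd36 and -0.43 to 1.28 for Havcr2. Tyro3 values rest on a few counts. As CPM of the total, 12 of 50 levels moved by more than 1 SD. Each age has 3 libraries, which limits every test. DESeq2 gave no adjusted p for Tyro3 among the 4 ages.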
